A study of Mus musculus with 49 samples.

Results

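The cytochrome P450 genes of families 1 to 4 (Cyp), the UDP-glucuronosyltransferase genes (Ugt), the glutathione S-transferase genes (Gst) and the sulfotransferase genes (Sult) were followed by RNA sequencing across cells of mouse small-intestinal crypts. Members were taken by symbol from the table of read counts: names starting with Cyp1, Cyp2, Cyp3 or Cyp4 and a letter, or with Ugt1, Ugt2, Gsta, Gstm, Gstp, Gstt, Gsto or Sult, with 10 or more counts in at least 2 libraries. Of 24062 genes in the table, 140 had such a symbol and 83 were members: 48 Cyp, 11 Ugt, 18 Gst and 6 Sult genes. Of the 83 members, 81 passed the filter on low counts that preceded the tests. Cyp4a31 and Cyp4f37 did not and have no test. Just inside the count rule, Ugt1a6b held 13 and 11 counts in its highest libraries and Cyp4f37 held 14 and 11, and just outside it Cyp2d40 held 11 and 7 and Cyp1b1 held 11 and 8.

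The 25 RNA libraries fell into 12 groups, all from crypts of the proximal small intestine of mice on a B6;129 mixed background. Rbpj-deleted secretory progenitors (2 libraries) were unsorted crypts of Rbpj F/F; Villin-CRE mice given tamoxifen at 2 mg and harvested on day 3. DBZ secretory progenitors (2 libraries) were unsorted crypts of Atoh1 F/F mice given the gamma-secretase inhibitor dibenzazepine (DBZ, which blocks Notch signalling) at 48 mg/kg at 0 and 12 h and harvested at 38 h. Enterocyte progenitors (2 libraries) were unsorted crypts of Atoh1 F/F; Villin-CRE mice, harvested 3 weeks after 5 days of tamoxifen at 1 mg. Villin-CRE acts throughout the intestinal epithelium. Irradiated Bmi1-GFP cells (1 library) and Bmi1-GFP cells (3 libraries) were GFP+ cells of Bmi-1GFP/+ mice, the irradiated cells coming from the treatment with 10 Gy, 36 h before harvest. Paneth cells (2 libraries, CD24Hi UEAHi) and enteroendocrine cells (2 libraries, CD24Hi UEA-) were sorted from wild-type mice. Stem cells were GFP+ cells of the Lgr5EGFP-DTR line (2 libraries) and GFP-HI cells of the Lgr5EGFP-IRES-CRE-ERT2 line (3 libraries). CD69+CD274+ cells were sorted from mice given DBZ at 48 mg/kg and harvested at 115 h (labelled goblet cells, 2 libraries), from mice given diphtheria toxin at 50 µg/kg 4 times on alternate days (2 libraries), and from untreated controls (2 libraries). The labels give the toxin-treated mice as wild type and name no toxin receptor for them.

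Library totals ranged from 11179085 to 27371108 counts, and levels are given as counts per 1000000 library counts (CPM) after TMM scaling. Both Rbpj-deleted libraries and replicate 1 of the CD274+CD69+ controls were made with a TruSeq kit and all others with a SMART-Seq kit. The labels call replicates biological without naming shared animals, so p-values measure the spread between these libraries. The pair of control CD274+CD69+ libraries differed by a chi-square per degree of freedom of 4.23 over genes, against 27.6 to 194 for the other replicate pairs. This is above sampling noise, but it cannot show separate animals, since 2 preparations of the same RNA could also differ. They were kept as 2 libraries as labelled. The p-values and overlaps of the goblet and toxin comparisons rest on this close pair. Atoh1 stood between 1.49 and 1.74 CPM in enterocyte progenitors and between 18.2 and 161 CPM in all other libraries. Rbpj stood between 21.0 and 28.4 CPM in Rbpj-deleted crypts and between 32.8 and 39.5 CPM in DBZ crypts, but also as low as 11.2 CPM in groups with no deletion (Lgr5-GFP-DTR cells), so its level does not check that label. Summed over 5 markers each, Paneth cell genes reached 54039.9 and 46445 CPM in the enteroendocrine libraries, where enteroendocrine genes summed to 9298 and 5121 CPM. Summed over 19 markers, enterocyte genes reached 158375 and 145496 CPM in the goblet libraries, where 5 goblet genes summed to 65489.9 and 108574 CPM. Bmi1-GFP libraries carried 10511, 9656 and 6166 CPM of enteroendocrine markers. Cd274 itself stood between 1.43 and 2.93 CPM in the control cells sorted on CD274.

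Enzymes of these families process foreign chemicals, drugs and plant compounds, and also steroids, bile acids, fatty acids and bilirubin. In phase I, cytochrome P450 enzymes oxidise a substrate with electrons passed on by the reductase Por. In phase II, Ugt, Sult and Gst enzymes attach glucuronic acid, sulfate or glutathione, after which transporters carry the product out of the cell. Many of the genes are switched on by sensors of foreign compounds: the aryl hydrocarbon receptor Ahr for Cyp1a1, the nuclear receptor Nr1i3 (CAR) for Cyp2b10 and Nr1i2 (PXR) for Cyp3a11. In the small intestine these enzymes are best known from mature enterocytes of the villus, which take up food and drugs.

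Promoter sequence is shown for Cyp1a1 and Cyp2b10, targets of known sensors that stood high in control CD274+CD69+ cells, and for the Cyp genes that share a motif. RefSeq sequence (GRCm38.p6, the assembly that mm10 denotes) was matched for 71 of the 83 members, and the 250 bases before each annotated start were searched on both strands. The core that Ahr binds, GCGTG, was found in 17 of the 71 members (23.9%) and in 30.9% of 27025 genes. Cyp1a1 holds it once, at base -54 from this start, which lies inside the annotated span of the gene, and Cyp2b10 holds it at -101 and -9, the first on the other strand. Capitals mark the core, and the windows are chr9:57697363-57697612 (plus strand) and chr7:25897408-25897657 (plus strand).
Cyp1a1: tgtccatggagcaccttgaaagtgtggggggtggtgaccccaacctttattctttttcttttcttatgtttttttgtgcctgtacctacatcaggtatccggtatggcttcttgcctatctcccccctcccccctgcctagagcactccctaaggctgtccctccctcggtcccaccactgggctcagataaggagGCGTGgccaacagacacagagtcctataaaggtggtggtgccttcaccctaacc
Cyp2b10: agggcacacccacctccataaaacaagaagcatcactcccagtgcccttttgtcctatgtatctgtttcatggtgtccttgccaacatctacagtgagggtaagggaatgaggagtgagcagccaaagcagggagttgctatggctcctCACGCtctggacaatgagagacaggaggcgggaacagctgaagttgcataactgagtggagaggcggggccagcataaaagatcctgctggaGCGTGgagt

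The binding letters of the enterocyte and liver factors Hnf4a and Hnf4g, CAAAGTCCA, were found in 5 of the 71 members (7.04%) and in 0.451% of all genes. All 5 were Cyp genes, and 4 of them are neighbours of the Cyp2c cluster on chromosome 19 that share ancestry, so they are not independent. The stretches below hold 61 bases each on the strand of the gene, with the match in capitals. They lie at chr5:145879929-145879989 (Cyp3a11, minus strand), chr19:39060864-39060924 (Cyp2c65, plus strand), chr19:39649133-39649193 (Cyp2c67, minus strand), chr19:39741144-39741204 (Cyp2c68, minus strand) and chr19:40187316-40187376 (Cyp2c70, minus strand). The match starts at -109, -116, -125, -77 and -64 in that order. Another motif, the antioxidant response core TGACNNNGC, was found in 7.04% of members and 11.5% of genes, and the Cdx letters TTTATNG in 12.7% and 11.3%. A match is a description of letters, not of a bound site.
Cyp3a11: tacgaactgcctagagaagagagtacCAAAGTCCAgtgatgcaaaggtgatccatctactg
Cyp2c65: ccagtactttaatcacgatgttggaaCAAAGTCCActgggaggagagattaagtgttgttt
Cyp2c67: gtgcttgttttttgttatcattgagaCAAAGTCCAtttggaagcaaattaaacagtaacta
Cyp2c68: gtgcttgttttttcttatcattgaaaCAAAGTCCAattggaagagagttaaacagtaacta
Cyp2c70: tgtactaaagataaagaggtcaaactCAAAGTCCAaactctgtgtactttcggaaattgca

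Many members lie in gene clusters: 7 Gstm genes on chromosome 3, 4 Cyp3a and 6 Ugt2 genes on chromosome 5, 8 Cyp2c genes on chromosome 19, 8 Cyp4f genes and a pseudogene on chromosome 17, and 5 Ugt1a genes on chromosome 1 that share exons. Cyp3a13 (chr5:137892933-137925610) and Cyp2c44 (chr19:44005022-44029256) lie apart from the clusters of their subfamilies. Near-identical copies (Gsta1 and Gsta2, Gstp1 and Gstp2, the Cyp3a, Cyp2c, Gstm and Ugt1a genes) can split or share reads, so a value for a single copy is uncertain.

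Of the 83 members, 60 averaged at least 5 CPM in some group and 36 averaged at least 100 CPM. Of those 60, 32 were highest in the irradiated Bmi1-GFP library, 8 in control CD274+CD69+ cells, 7 in Lgr5-GFP-Cre cells, 6 in goblet cells and 2 in Lgr5-GFP-DTR cells. None was highest in toxin-treated CD274+CD69+ cells or in Rbpj-deleted crypts. The summed Cyp level was 16369 CPM in the irradiated library and 9175 and 8296 CPM in goblet cells, against 485 and 564 CPM in enteroendocrine cells, the lowest group. The summed Ugt level ranged likewise, with 1978 CPM in the irradiated library and 194 and 223 CPM in enteroendocrine cells. Gst genes varied less: their sum was 4075 CPM in the irradiated library and lowest, 947 and 1100.4 CPM, in Rbpj-deleted crypts.

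**Figure D1:**
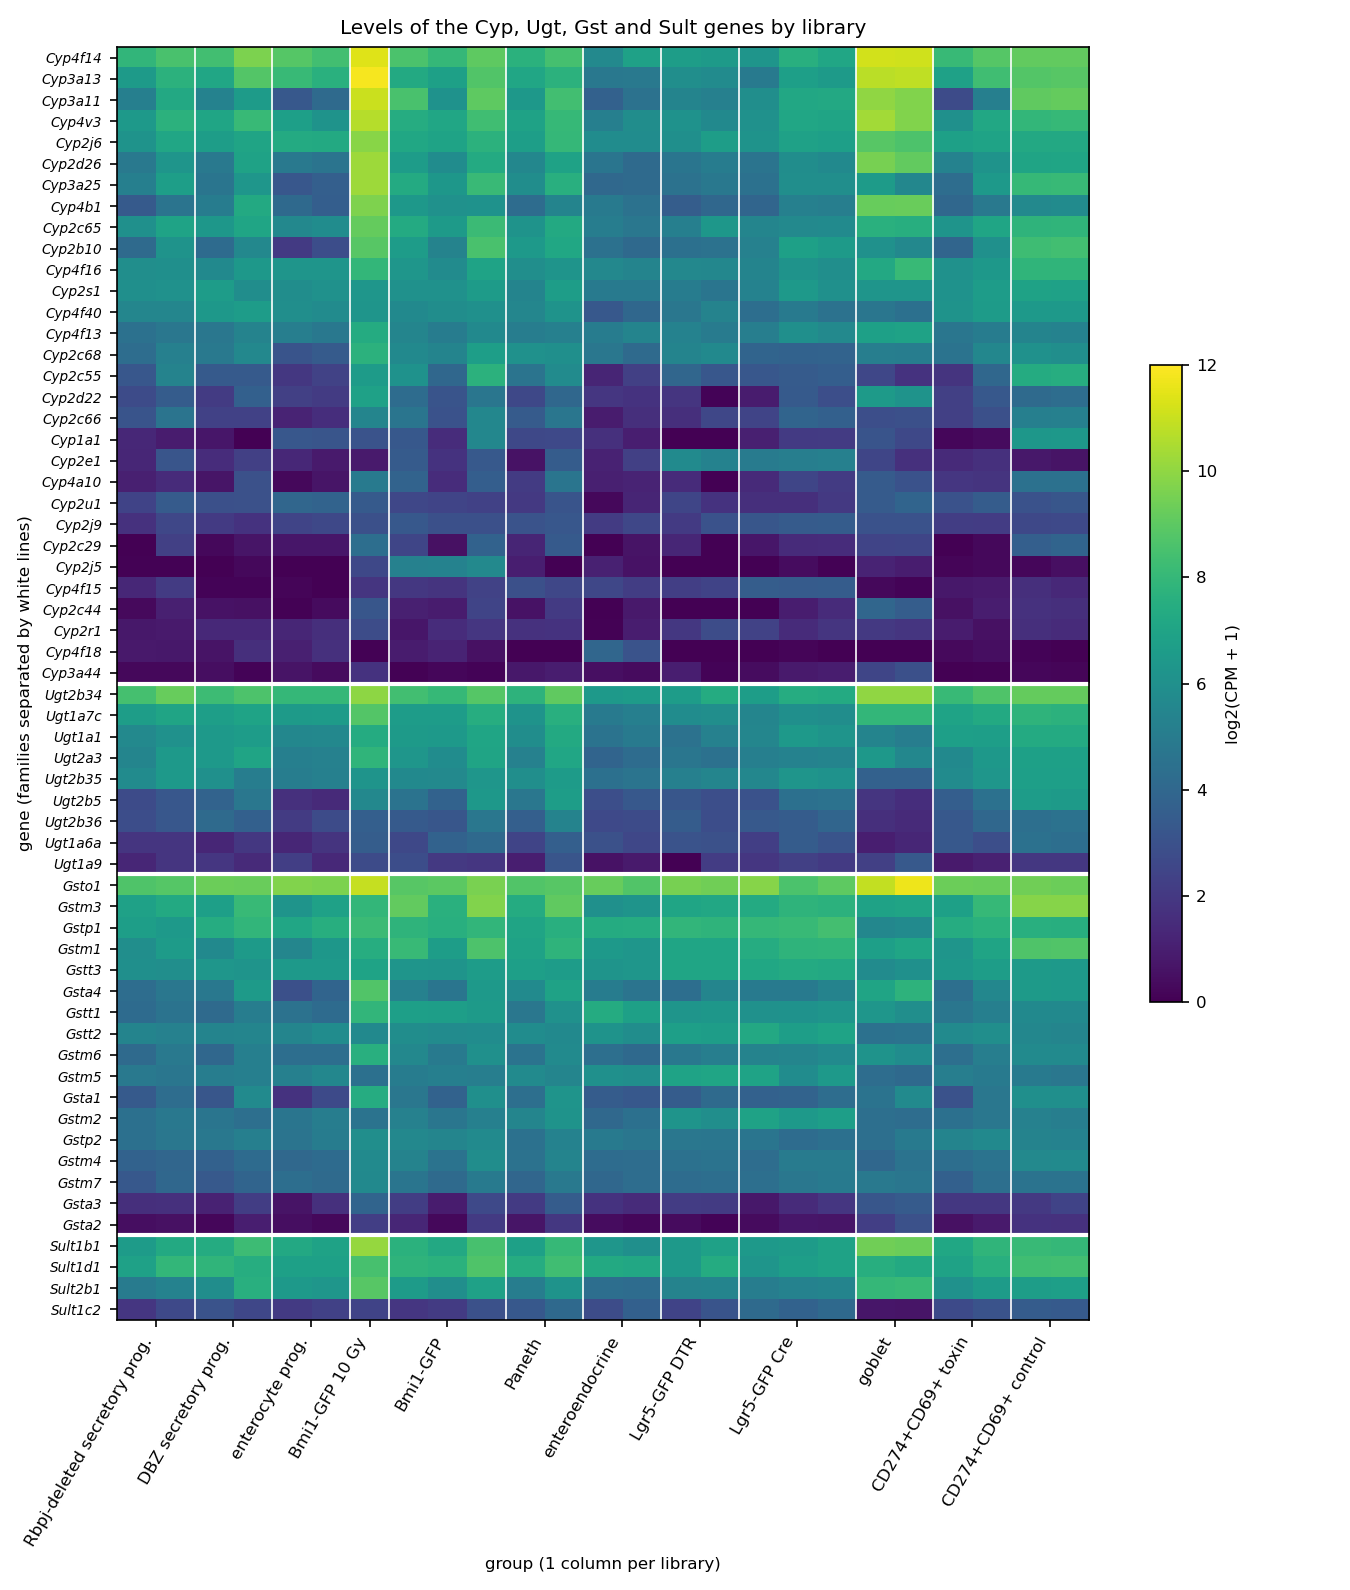
Level of each gene that averaged at least 5 CPM in some group, as log2(CPM + 1), with 1 row per gene and 1 column per library; white lines separate groups and enzyme families. The irradiated and goblet columns are brightest for Cyp3a13, Cyp4f14 and Gsto1, and the enteroendocrine columns are among the darkest for most Cyp genes.

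Enterocyte markers were likewise high in the irradiated and goblet libraries and lowest in enteroendocrine cells. All 19 enterocyte markers had counts in every library, and their sum was 154774 CPM in the irradiated library, 158375 and 145496 CPM in goblet cells, 19802 and 20521 CPM in control CD274+CD69+ cells and 2704 and 3172 CPM in enteroendocrine cells. In the plot of family sums against these markers, Cyp sums tended to be higher where the markers were, with exceptions: enterocyte progenitor replicate 1 and Lgr5-GFP-Cre replicate 2 both had a Cyp sum of 1392 CPM, with 12350.3 and 5879.6 CPM of markers. Replicates could differ in the same way: Paneth replicates 1 and 2 had 7179.6 and 16374 CPM of enterocyte markers and Cyp sums of 1241 and 2582 CPM, in that order. The part of such cells in the results that follow was not tested. In these bulk libraries, fewer cells of a type and less RNA per cell cannot be told apart.

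**Figure D2:**
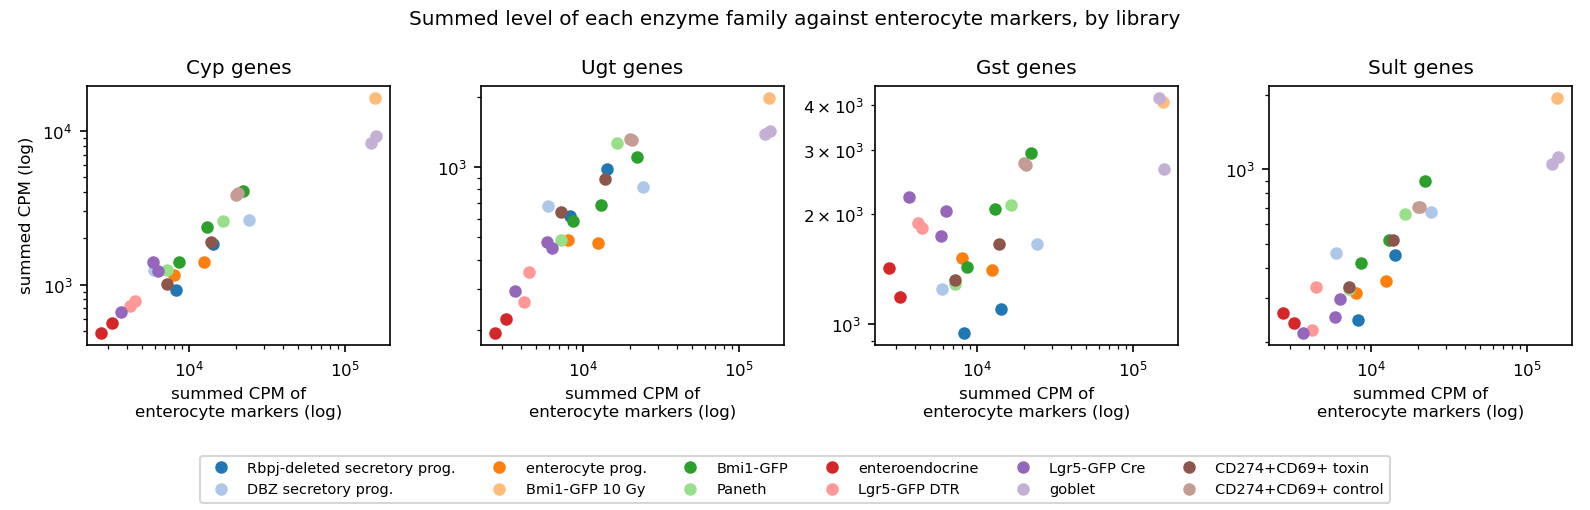
Summed CPM of each enzyme family (vertical, log scale) against the summed CPM of the enterocyte markers (horizontal, log scale), 1 point per library coloured by group. Cyp sums run from 485 CPM in an enteroendocrine library to 16369 CPM in the irradiated library, and the goblet libraries lie beside the irradiated one on the marker axis.

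A first group of members was highest in goblet cells or in the irradiated library. Cyp3a13, an intestinal Cyp3a enzyme, had 3622 CPM in the irradiated library and 1748 and 1818 CPM in goblet cells, against 27.2 and 28.1 CPM in enteroendocrine cells. Cyp4f14, which hydroxylates leukotriene B4 and fatty acids at the omega end, had 2694 CPM in the irradiated library and 2349 and 2280.2 CPM in goblet cells. These libraries stood apart from all others, whose highest Cyp4f14 value was 782 CPM. Cyp4v3, a fatty acid omega-hydroxylase, showed 1614 CPM and 1297 and 833 CPM in the same libraries. Gsto1, the omega class transferase that also reduces dehydroascorbate, had 1948 CPM and 1902 and 3265 CPM there. The lowest Gsto1 value of any library was 392 CPM. Ugt2b34, a glucuronosyltransferase, had 993 CPM in the irradiated library and 1032 and 1041 CPM in goblet cells. Sult1b1, which sulfates phenols and thyroid hormones, had 1102 CPM and 682 and 623 CPM in those libraries.

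A second group was highest in stem cells. Cyp2e1, the ethanol-oxidising P450, had 52.4 and 39.2 CPM in Lgr5-GFP-DTR cells and 31.2, 33.5 and 35.8 CPM in Lgr5-GFP-Cre cells, and at most 10.1 CPM in any other library. Gstm5 had 122 and 129.8 CPM in Lgr5-GFP-DTR cells and 125, 56.1 and 89.8 CPM in Lgr5-GFP-Cre cells. Both stem cell lines thus carried these transcripts, and the lowest Gstm5 value of Lgr5-GFP-Cre cells lay below both enteroendocrine values (64.6 and 59.7 CPM). Single groups also held members of their own. Cyp2j5, an arachidonic acid epoxygenase abundant in mouse kidney, had 37.6, 38.8 and 48.6 CPM in Bmi1-GFP cells, 5.05 CPM in the irradiated library and at most 1.28 CPM in all other libraries. Cyp4f18, known as a leukotriene B4 hydroxylase of mouse neutrophils, had 14.5 and 7.32 CPM in enteroendocrine cells and at most 2.16 CPM elsewhere. The 8 immune markers summed to 348 and 258 CPM in enteroendocrine cells and to 1036, 597 and 438 CPM in Bmi1-GFP replicates 1 to 3, where Cyp4f18 stood at 0.871, 1.26 and 0.439 CPM. Among them the myeloid genes differed. Lyz2 had 249 and 153 CPM in enteroendocrine cells and 14.7, 2.01 and 16.3 CPM in Bmi1-GFP cells. Csf1r had 9.57 and 5.76 CPM in enteroendocrine cells and 0.0581, 0.302 and 0.571 CPM in Bmi1-GFP cells. Itgam was not higher, with 11.3 and 8.77 CPM in enteroendocrine cells and 9.64, 13.5 and 13.7 CPM in Bmi1-GFP cells. Paneth libraries had 80.5 and 32.2 CPM of Lyz2 and 0 CPM of Cyp4f18. In Bmi1-GFP cells the sum was mostly the lymphocyte gene Gzmb (617, 356 and 222 CPM, and 22.3 and 10.7 CPM in enteroendocrine cells). The part of immune cells in the Cyp4f18 level was not tested.

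**Figure D3:**
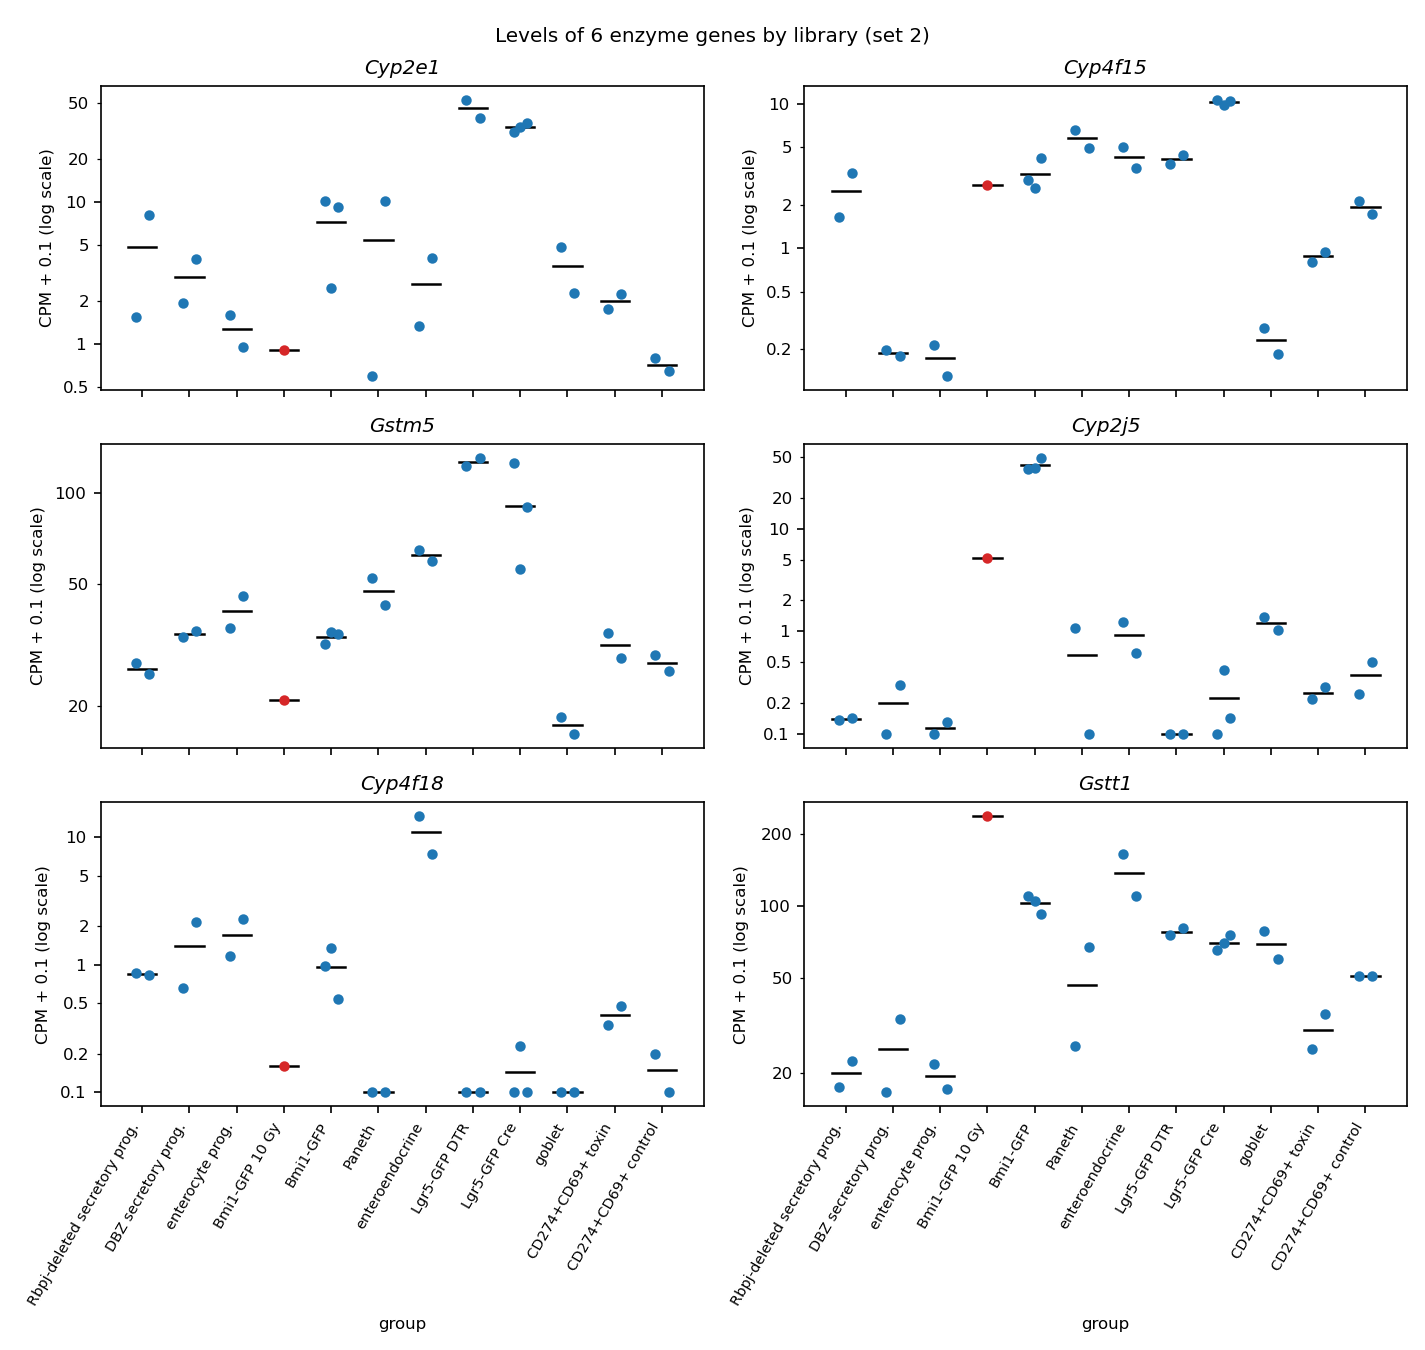
CPM + 0.1 (log scale) of Cyp2e1, Cyp4f15, Gstm5, Cyp2j5, Cyp4f18 and Gstt1, 1 point per library with a bar at the group mean; the single irradiated library is red. Cyp2j5 is set apart in Bmi1-GFP libraries at 37.6 to 48.6 CPM and Cyp4f18 in enteroendocrine libraries at 7.32 and 14.5 CPM.

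Each of the 8 comparisons below was tested with edgeR's quasi-likelihood model over all 14837 genes, with Benjamini-Hochberg adjustment, and a gene was called at an adjusted p below 0.05. The comparisons share groups and are not independent of each other. The share of all genes called in the same direction is the background for each count of members.

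**Figure D4:**
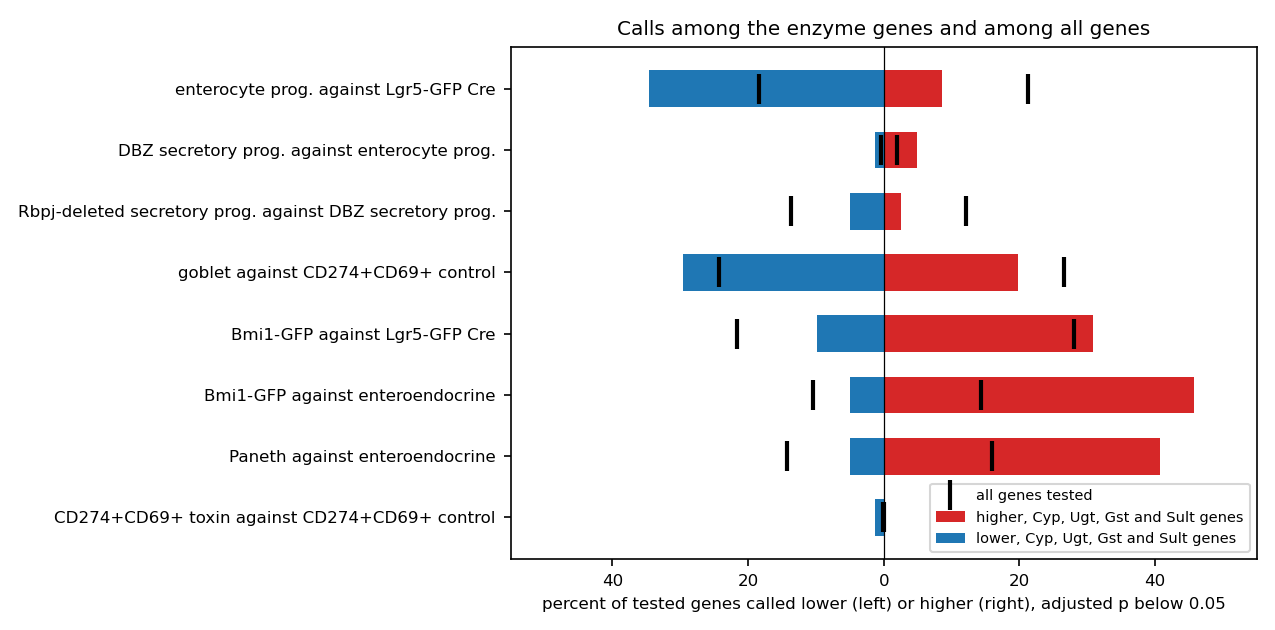
Percent of the 81 tested members (bars) and of all 14837 genes tested (black ticks) called lower (left, blue) or higher (right, red) in each comparison, with adjusted p below 0.05. Among other cases, members exceed the ticks on the lower side for enterocyte progenitors against Lgr5-GFP-Cre cells (34.6% and 18.4%). They also do on the higher side for Bmi1-GFP cells (45.7% and 14.3%) and Paneth cells (40.7% and 15.9%) against enteroendocrine cells. Cases below the ticks include the higher side for enterocyte progenitors (8.64% and 21.3%) and both sides for Rbpj-deleted against DBZ secretory progenitors.

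Enterocyte progenitors were set against Lgr5-GFP-Cre stem cells to ask how the enzymes differ between absorptive progenitors and stem cells. Gstm2, Gstt2, Cyp2b10, Cyp3a11 and Cyp2e1 were among the genes that fell in the progenitors, and Cyp2u1, Cyp4f14 and Cyp4f40 among those that rose. Of 81 members, 28 fell (34.6%, background 18.4%) and 7 rose (8.64%, background 21.3%). The median log2 fold change was -0.85 over the members and -0.00 over all genes. By family, 9 of 18 Gst genes fell and 0 rose, 13 of 46 Cyp genes fell and 5 rose, 4 of 11 Ugt genes fell and 1 rose, and 2 of 6 Sult genes fell and 1 rose. Enterocyte markers summed to 12350.3 and 7944 CPM in the progenitors, against 3629.6, 5879.6 and 6325 CPM in stem cells. Other markers differed more: Paneth markers summed to 49.9 and 111 CPM in the progenitors, against 43189.7, 39428 and 45807 CPM in stem cells, and goblet markers to 7.57 and 11.7 CPM in the progenitors, against 1828, 1215 and 1512 CPM in stem cells. Tuft cell markers summed to 909 and 438 CPM in the progenitors, against 10.7, 15.8 and 13.8 CPM in stem cells, and immune markers to 205 and 165 CPM in the progenitors, against 15.2, 21.5 and 23.3 CPM in stem cells. Their part in the result was not tested. The progenitors were unsorted crypts and the stem cells a sort. The progenitors also came from Atoh1 F/F mice with Villin-CRE given tamoxifen. Tissue preparation, genotype, drug and cell state thus cannot be told apart.

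Cyp2b10, the classic target of CAR, had 3.17 and 6.10 CPM in enterocyte progenitors, against 37.4, 114 and 92.2 CPM in Lgr5-GFP-Cre cells (log2 fold change -4.12, SE 0.93, adjusted p = 0.00208). Cyp3a11, a PXR target and the counterpart of a major human drug-metabolising enzyme, had 8.79 and 16.5 CPM in the progenitors, against 60.4, 143 and 148 CPM in stem cells (log2 fold change -3.21, SE 0.90, adjusted p = 0.00891). Both progenitor values lay below all 3 stem cell values for each gene. Cyp2e1 had 1.49 and 0.853 CPM in the progenitors, against 31.2, 33.5 and 35.8 CPM in stem cells (log2 fold change -4.84, SE 0.97, adjusted p = 0.000879). Cyp4f15 had 0.115 and 0.0305 CPM (4 counts in all) in the progenitors, against 10.5, 9.75 and 10.4 CPM in stem cells (log2 fold change -7.09, SE 0.59, adjusted p = 3.21e-07). Among other members of its cluster on chromosome 17, Cyp4f14 and Cyp4f40 rose and Cyp4f13 fell. Cyp4f13 had 33.98 and 26.7 CPM in the progenitors, against 34.5, 61.8 and 49.3 CPM in stem cells. It lost its call in a fit to these groups alone (log2 fold change -0.73, adjusted p = 0.0533). Cyp4f14 had 456 and 334 CPM in the progenitors, against 74.3, 192 and 136 CPM in stem cells (log2 fold change 1.56, SE 0.43, adjusted p = 0.00872). Cyp4f40 had 59.98 and 54.96 CPM in the progenitors, against 18.9, 29.6 and 21.9 CPM in stem cells (log2 fold change 1.29, SE 0.25, adjusted p = 0.000584). Cyp2u1, a fatty acid hydroxylase, had 14.3 and 13.3 CPM in the progenitors, against 2.08, 2.08 and 2.998 CPM in stem cells (log2 fold change 2.52, SE 0.49, adjusted p = 0.000716). Cyp3a13, unlike Cyp3a11, was higher, with 270.3 and 195 CPM in the progenitors, against 29.4, 109 and 93.1 CPM in stem cells (log2 fold change 1.59, SE 0.58, adjusted p = 0.0368).

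Among the transferases, Gstm2 had 24.5 and 32.6 CPM in the progenitors, against 122, 87.3 and 105 CPM in stem cells (log2 fold change -1.87, SE 0.25, adjusted p = 2.89e-05). Gstt2, a theta class enzyme, had 42.5 and 55.9 CPM in the progenitors, against 149.8, 104 and 124 CPM in stem cells (log2 fold change -1.35, SE 0.17, adjusted p = 1.38e-05). Ugt2b5 had 2.22 and 1.71 CPM in the progenitors, against 7.10, 20.8 and 22.3 CPM in stem cells (log2 fold change -3.10, SE 0.75, adjusted p = 0.00356), while Sult2b1, which sulfates cholesterol and pregnenolone, had 87.2 and 79.3 CPM in the progenitors, against 33.1, 38.7 and 41.97 CPM in stem cells (log2 fold change 1.13, SE 0.36, adjusted p = 0.0196). Of 61 tested genes that serve these enzymes (sensors, electron partners, cofactor supply, other phase I and II enzymes and efflux pumps), 12 rose and 11 fell. As shares of the 61 these were near those of all genes, 21.3% and 18.4%. Cofactor genes rose in 4 of 9 cases and fell in 0: the glutathione reductase Gsr averaged 844 ± 11.2 CPM in the progenitors and 246 ± 1.65 CPM in stem cells (SD, n = 2 and 3, log2 fold change 1.78, SE 0.18, adjusted p = 1.59e-06). The carboxylesterase Ces1d averaged 0.4 ± 0.296 CPM in the progenitors and 102 ± 31.98 CPM in stem cells (SD, n = 2 and 3, log2 fold change -7.93, SE 0.52, adjusted p = 3.09e-08), the lowest adjusted p of the set. Without progenitor replicate 1 or 2 fewer members and fewer of all genes were called. The median log2 fold change over the members was then -0.926 and -1.01. Without stem cell replicate 3, 23 members and 5025 genes were called instead of 35 and 5888. Cyp3a11 and Cyp4f14 lost their calls without progenitor replicate 1 (adjusted p = 0.109 and 0.0904), and Cyp3a13 lost its call without any 1 of 4 libraries (adjusted p = 0.0559 to 0.199).

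DBZ secretory progenitors were set against enterocyte progenitors to compare the secretory with the absorptive branch. The former mice were given DBZ, and the latter carried Villin-CRE and were given tamoxifen. Branch, drug and genotype thus cannot be told apart. Few members differed: 4 rose (4.94%, background 1.97%) and 1 fell (1.23%, background 0.465%), and the median log2 fold change was 0.36 over the members and 0.02 over all genes. Ugt2b5 had 12.9 and 26.3 CPM in DBZ crypts, against 2.22 and 1.71 CPM in enterocyte progenitors (log2 fold change 3.32, SE 0.78, adjusted p = 0.0259). Cyp2c68 had 28.3 and 46.9 CPM in DBZ crypts, against 7.65 and 9.75 CPM in enterocyte progenitors (log2 fold change 2.11, SE 0.41, adjusted p = 0.00564). Cyp4b1, which oxidises fatty acids and activates plant toxins, had 32.02 and 157 CPM in DBZ crypts, against 16.4 and 11.1 CPM in enterocyte progenitors (log2 fold change 2.78, SE 0.61, adjusted p = 0.015). Gsta4, which conjugates the lipid peroxidation product 4-hydroxynonenal, had 27.1 and 90.9 CPM in DBZ crypts, against 6.57 and 13.5 CPM in enterocyte progenitors (log2 fold change 2.55, SE 0.65, adjusted p = 0.0418). DBZ replicate 2 was the higher one for all 4 genes, and its enterocyte markers summed higher too (5941 and 24109 CPM for DBZ replicates 1 and 2, against 12350.3 and 7944 CPM in enterocyte progenitors). Goblet markers summed to 5461 and 6102 CPM in DBZ crypts, against 7.57 and 11.7 CPM in enterocyte progenitors, and Paneth markers to 16136 and 4359.5 CPM in DBZ crypts, against 49.9 and 111 CPM in enterocyte progenitors, and their part was not tested. The gene that fell was Cyp1a1, with 0.654 and 0 CPM in DBZ crypts, against 8.68 and 7.89 CPM in enterocyte progenitors (log2 fold change -4.55, SE 1.14, adjusted p = 0.0418). Of the 61 genes of the wider pathway 4 rose and 0 fell, among them Ces1d, which had 6.24 and 15.4 CPM in DBZ crypts, against 0.191 and 0.61 CPM in enterocyte progenitors (log2 fold change 4.68, SE 0.49, adjusted p = 8.76e-06). All 5 member calls were lost without DBZ replicate 2 and without either enterocyte progenitor library. The median log2 fold change over the members was 0 without DBZ replicate 2. It was 0.421 and 0.361 without enterocyte progenitor replicates 1 and 2. In a fit to these groups alone Cyp4b1 (adjusted p = 0.131), Gsta4 (0.112) and Cyp1a1 (0.0779) were not called.

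Rbpj-deleted secretory progenitors were set against DBZ secretory progenitors, as both treatments interfere with Notch signalling. Kit and group coincide here, TruSeq for the Rbpj-deleted crypts and SMART-Seq for the DBZ crypts, so their effects cannot be told apart. Of 81 members, 4 fell (4.94%, background 13.7%) and 2 rose (2.47%, background 12.1%), and the median log2 fold change was -0.14 over the members and -0.02 over all genes. Sult2b1 had 30.5 and 39.2 CPM in Rbpj-deleted crypts, against 57.9 and 192 CPM in DBZ crypts (log2 fold change -1.84, SE 0.42, adjusted p = 0.00316). Gstp1, the pi class transferase, had 105 and 86.1 CPM in Rbpj-deleted crypts, against 170.4 and 239 CPM in DBZ crypts (log2 fold change -1.09, SE 0.22, adjusted p = 0.00127). Cyp4b1 had 9.59 and 23.8 CPM in Rbpj-deleted crypts, against 32.02 and 157 CPM in DBZ crypts (log2 fold change -2.50, SE 0.60, adjusted p = 0.00498). Cyp4f40 had 44.1 and 44.6 CPM in Rbpj-deleted crypts, against 83.00 and 96.8 CPM in DBZ crypts (log2 fold change -1.02, SE 0.27, adjusted p = 0.0103). The 2 genes that rose, Cyp4f15 and Cyp4f17, were low: Cyp4f15 had 1.55 and 3.20 CPM in Rbpj-deleted crypts, against 0.098 and 0.0808 CPM in DBZ crypts (log2 fold change 4.63, SE 0.57, adjusted p = 1.52e-05). Of the sensors, the PXR gene Nr1i2 had 67.01 and 62.99 CPM in Rbpj-deleted crypts, against 14.7 and 16.3 CPM in DBZ crypts (log2 fold change 2.07, SE 0.20, adjusted p = 8.2e-07), while Cyp3a11 had 35.2 and 149 CPM in Rbpj-deleted crypts, against 39.5 and 94.8 CPM in DBZ crypts, and was not called (log2 fold change 0.45, SE 0.85, adjusted p = 0.746). Without DBZ replicate 2 fewer members and fewer of all genes were called. Cyp4b1 (log2 fold change -0.928), Sult2b1 (-0.716) and Cyp4f40 (-0.882) lost their calls there. Cyp4b1 also lost its call in a fit to these groups alone (adjusted p = 0.0547) and without Rbpj-deleted replicate 1 (log2 fold change -1.98). Cyp4f40 also lost its call without Rbpj-deleted replicate 1 or 2 (log2 fold change -1.01 and -1.03).

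Goblet cells were set against control CD274+CD69+ cells, the same sort without DBZ. Cyp4b1, Cyp2d26 and Cyp4f14 were among the P450 genes that rose in goblet cells, and Cyp2c55, Ugt2b5, Gstm3 and Sult1c2 among the members that fell. Of 81 members, 16 rose (19.8%, background 26.6%) and 24 fell (29.6%, background 24.3%). Among them 13 of 46 Cyp genes rose and 8 fell, 1 of 18 Gst genes rose and 9 fell, 0 of 11 Ugt genes rose and 6 fell, and 2 of 6 Sult genes rose and 1 fell. The goblet libraries carried 158375 and 145496 CPM of enterocyte markers, against 19802 and 20521 CPM in the controls, and 65489.9 and 108574 CPM of goblet markers, against 8920.4 and 10159.8 CPM in the controls.

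Cyp4b1 had 599.7 and 611 CPM in goblet cells, against 48.7 and 53.5 CPM in control CD274+CD69+ cells (log2 fold change 3.57, SE 0.63, adjusted p = 0.000119). Cyp2d26 had 747 and 551 CPM in goblet cells, against 126 and 133 CPM in the controls (log2 fold change 2.33, SE 0.64, adjusted p = 0.00536), and Cyp2d22 92.6 and 71.9 CPM in goblet cells, against 16.9 and 18.8 CPM in the controls (log2 fold change 2.21, SE 0.84, adjusted p = 0.0355). Groups did not overlap for any of them. Cyp3a44 was nearly unmeasured in the controls, with 4.65 and 6.59 CPM in goblet cells, against 0.148 and 0.135 CPM (6 counts) in the controls (log2 fold change 5.25, SE 0.98, adjusted p = 0.000208). In the opposite direction, Cyp2c55, an intestinal arachidonic acid epoxygenase, had 4.83 and 2.36 CPM in goblet cells, against 168 and 175 CPM in the controls (log2 fold change -5.58, SE 1.08, adjusted p = 0.000303). Ugt2b5 had 2.64 and 1.94 CPM in goblet cells, against 98.98 and 92.6 CPM in the controls (log2 fold change -5.39, SE 0.87, adjusted p = 5.39e-05), and Ugt1a6a, which conjugates phenols, 1.002 and 1.44 CPM in goblet cells, against 21.3 and 19.2 CPM in the controls (log2 fold change -4.05, SE 0.63, adjusted p = 3.29e-05). Sult1c2 had 0.638 and 0.591 CPM in goblet cells, against 10.3 and 9.60 CPM in the controls (log2 fold change -4.00, SE 0.59, adjusted p = 1.87e-05). Gstm3 had 119 and 126 CPM in goblet cells, against 897 and 911 CPM in the controls (log2 fold change -2.89, SE 0.60, adjusted p = 0.000647).

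Cyp3a13, on chromosome 5 but outside the cluster of the other Cyp3a genes, rose, with 1748 and 1818 CPM in goblet cells, against 442 and 472 CPM in the controls (log2 fold change 1.96, SE 0.67, adjusted p = 0.0197), and Cyp3a25, of that cluster, fell, with 94.5 and 46.4 CPM in goblet cells, against 259 and 274 CPM in the controls (log2 fold change -1.92, SE 0.76, adjusted p = 0.0412). Cyp3a44, of the same cluster as Cyp3a25, rose (above). Cyp3a11, also of that cluster, was not called, with 1030.5 and 859 CPM in goblet cells, against 540.3 and 575 CPM in the controls (log2 fold change 0.76, SE 0.85, adjusted p = 0.477). Of the 61 pathway genes 13 rose and 12 fell. As shares of the 61 these were below those of all genes, 26.6% and 24.3%. The PXR gene Nr1i2 had 176 and 134 CPM in goblet cells, against 21.7 and 24.6 CPM in the controls (log2 fold change 2.74, SE 0.20, adjusted p = 1.24e-08), and Aldh1b1, a mitochondrial aldehyde dehydrogenase, averaged 122 ± 20.1 CPM in goblet cells and 1338 ± 53.6 CPM in the controls (SD, n = 2 each, log2 fold change -3.46, SE 0.32, adjusted p = 1.2e-07). Without any 1 of the 4 libraries fewer members and fewer of all genes were called. The median log2 fold change over the members was -0.381 without control replicate 1, the TruSeq library, and -0.404 without control replicate 2. It was -0.389 and -0.296 without goblet replicates 1 and 2, and -0.135 with all libraries. Over all genes the median was -0.102 to -0.0392 in these 4 fits, and 0.116 with all libraries. Cyp2d26 lost its call without either control library (adjusted p = 0.0604 and 0.0527), and Cyp2d22 (0.0968 to 0.194) and Cyp3a13 (0.0744 to 0.134) without any 1 of the 4 libraries. Cyp3a25 lost its call without goblet replicate 2 (adjusted p = 0.161) and without either control library (0.0542 and 0.057).

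Bmi1-GFP cells were set against Lgr5-GFP-Cre stem cells, since both reporters have been used to mark crypt cells with stem cell activity. Cyp2j5, Sult1d1 and 3 of the 9 Cyp2c genes were among the members that rose in Bmi1-GFP cells, and Cyp2e1 and Gstm2 among those that fell. Of 81 members, 25 rose (30.9%, background 28.1%) and 8 fell (9.88%, background 21.7%), with a median log2 fold change of 0.86 over the members and 0.11 over all genes. The share that rose was near that of all genes. Among the Cyp genes 16 of 46 rose and 3 fell, and among the Gst genes 3 of 18 rose and 4 fell. Cyp2j5 had 37.6, 38.8 and 48.6 CPM in Bmi1-GFP cells, against 0, 0.325 and 0.0422 CPM (6 counts in all) in stem cells (log2 fold change 8.45, SE 0.93, adjusted p = 4e-06). Cyp2c55 had 67.6, 15.2 and 205 CPM in Bmi1-GFP cells, against 8.60, 10.01 and 11.02 CPM in stem cells (log2 fold change 3.28, SE 0.77, adjusted p = 0.00201). The 3 Bmi1-GFP libraries spread widely for this gene and not for Cyp2j5. Cyp2c68 had 51.1, 42.2 and 104 CPM in Bmi1-GFP cells, against 13.7, 12.6 and 13.05 CPM in stem cells (log2 fold change 2.32, SE 0.34, adjusted p = 3.62e-05), and Cyp2c65 161, 91.9 and 289.7 CPM in Bmi1-GFP cells, against 42.98, 49.7 and 52.2 CPM in stem cells (log2 fold change 1.90, SE 0.40, adjusted p = 0.000844). Sult1d1, a catechol sulfotransferase, had 219, 203 and 409 CPM in Bmi1-GFP cells, against 76.6, 104 and 120.4 CPM in stem cells (log2 fold change 1.47, SE 0.33, adjusted p = 0.00142).

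Of the genes that fell, Cyp2e1 had 9.99, 2.37 and 9.09 CPM in Bmi1-GFP cells, against 31.2, 33.5 and 35.8 CPM in stem cells (log2 fold change -2.23, SE 0.71, adjusted p = 0.0145). Sult1c2 had 2.73, 3.22 and 6.85 CPM in Bmi1-GFP cells, against 16.6, 12.6 and 16.2 CPM in stem cells (log2 fold change -1.82, SE 0.39, adjusted p = 0.00103), Cyp4f15 2.85, 2.52 and 4.09 CPM in Bmi1-GFP cells, against 10.5, 9.75 and 10.4 CPM in stem cells (log2 fold change -1.70, SE 0.36, adjusted p = 0.000817), and Gstm2 37.8, 24.9 and 35.9 CPM in Bmi1-GFP cells, against 122, 87.3 and 105 CPM in stem cells (log2 fold change -1.67, SE 0.22, adjusted p = 1.23e-05). No Bmi1-GFP library overlapped a stem cell library in these genes. Efflux pumps rose in 4 of 6 cases (background 28.1% of all genes) and fell in 0 (background 21.7%). Among those that rose was the P-glycoprotein gene Abcb1a, which had 80.2, 74.04 and 108 CPM in Bmi1-GFP cells, against 10.2, 17.6 and 17.1 CPM in stem cells (log2 fold change 2.54, SE 0.41, adjusted p = 9.35e-05). Bmi1-GFP replicate 3 was the highest of the 3 for most of these genes, and its enterocyte markers were highest too (12970.5, 8532 and 22169 CPM for replicates 1 to 3, against 3629.6, 5879.6 and 6325 CPM in stem cells). Hepatocyte markers summed to 243, 19.5 and 12.8 CPM in the same Bmi1-GFP replicates, against 2.02, 4.23 and 3.63 CPM in stem cells. In the same order, enteroendocrine markers summed to 10511, 9656 and 6166 CPM, against 216, 222 and 214 CPM. Paneth markers summed to 8494, 9317 and 6395 CPM, against 43189.7, 39428 and 45807 CPM. Tuft markers summed to 317, 276 and 136 CPM, against 10.7, 15.8 and 13.8 CPM. Immune markers summed to 1036, 597 and 438 CPM, against 15.2, 21.5 and 23.3 CPM. The part of such cells in the result was not tested. Without Bmi1-GFP replicate 2, Cyp2e1 lost its call (adjusted p = 0.062). With 1 library left out, the median log2 fold change over the members ranged from 0.401 to 1.05. It was lowest without Bmi1-GFP replicate 3, when 18 of 80 members and 3708 of 14769 genes rose. It was 0.496 without Lgr5-GFP-Cre replicate 1, when 18 of 81 members and 3457 of 14823 genes rose.

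Bmi1-GFP cells were also set against enteroendocrine cells, since both carried enteroendocrine markers (10511, 9656 and 6166 CPM in Bmi1-GFP cells, against 9298 and 5121 CPM in enteroendocrine cells). The enzyme genes were broadly higher in Bmi1-GFP cells. Of 81 members, 37 rose (45.7%, background 14.3%) and 4 fell (4.94%, background 10.5%), and the median log2 fold change was 1.81 over the members and 0.06 over all genes. By family 22 of 46 Cyp, 7 of 11 Ugt, 6 of 18 Gst and 2 of 6 Sult genes rose. Cyp2c55 had 67.6, 15.2 and 205 CPM in Bmi1-GFP cells, against 1.39 and 3.90 CPM in enteroendocrine cells (log2 fold change 5.15, SE 1.02, adjusted p = 0.00214). Cyp2c66 had 24.2, 7.20 and 45.96 CPM in Bmi1-GFP cells, against 0.909 and 2.04 CPM in enteroendocrine cells (log2 fold change 4.09, SE 0.77, adjusted p = 0.0016). Cyp3a11 had 381, 69.4 and 525 CPM in Bmi1-GFP cells, against 12.3 and 21.7 CPM in enteroendocrine cells (log2 fold change 4.25, SE 0.95, adjusted p = 0.00437). Cyp2j5 was again apart, with 37.6, 38.8 and 48.6 CPM in Bmi1-GFP cells, against 1.12 and 0.52 CPM in enteroendocrine cells (log2 fold change 5.69, SE 0.90, adjusted p = 0.000593). Ugt2a3 had 77.7, 56.3 and 126 CPM in Bmi1-GFP cells, against 13.4 and 18.03 CPM in enteroendocrine cells (log2 fold change 2.46, SE 0.48, adjusted p = 0.00187).

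The reverse was seen for Cyp4f18, with 0.871, 1.26 and 0.439 CPM in Bmi1-GFP cells, against 14.5 and 7.32 CPM in enteroendocrine cells (log2 fold change -3.67, SE 0.78, adjusted p = 0.00423), and for Gstm5, with 31.8, 34.7 and 34.3 CPM in Bmi1-GFP cells, against 64.6 and 59.7 CPM in enteroendocrine cells (log2 fold change -0.89, SE 0.22, adjusted p = 0.00896). Gstt1, a theta class transferase, had 110.2, 105 and 92.6 CPM in Bmi1-GFP cells, against 164 and 110.2 CPM in enteroendocrine cells, and was not called (log2 fold change -0.42, SE 0.31, adjusted p = 0.339). Of the 61 pathway genes 35 rose (background 14.3% of all genes) and 3 fell (background 10.5%). Those that rose included 8 of 13 sensors, such as the CAR gene Nr1i3, which had 17.8, 16.7 and 25.8 CPM in Bmi1-GFP cells, against 1.60 and 3.75 CPM in enteroendocrine cells (log2 fold change 2.88, SE 0.40, adjusted p = 0.000186). Enterocyte markers were higher in Bmi1-GFP cells (12970.5, 8532 and 22169 CPM, against 2704 and 3172 CPM in enteroendocrine cells). Paneth markers summed to 8494, 9317 and 6395 CPM in Bmi1-GFP cells, against 54039.9 and 46445 CPM in enteroendocrine cells. Tuft cell markers summed to 317, 276 and 136 CPM in Bmi1-GFP cells, against 463 and 2473 CPM in enteroendocrine cells. The part of such cells in the result was not tested. Without either enteroendocrine library fewer members and fewer of all genes were called. Cyp3a11, Cyp4f18 and Gstm5 lost their calls without enteroendocrine replicate 1 (log2 fold change 3.86, -3.12 and -0.863). The median log2 fold change over the members was 1.66 without that library and 1.99 without enteroendocrine replicate 2. It was 1.80, 2.09 and 1.22 without Bmi1-GFP replicates 1 to 3, in that order. Without Bmi1-GFP replicate 3, 30 members and 2575 genes were called instead of 41 and 3688.

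Paneth cells were set against enteroendocrine cells, the other population of the CD24Hi sort. Members were again broadly higher: 33 of 81 rose (40.7%, background 15.9%) and 4 fell (4.94%, background 14.2%), with a median log2 fold change of 1.64 over the members and 0.01 over all genes. Glucuronosyltransferases rose in 8 of 11 cases and fell in 0. Ugt1a7c had 70.1 and 189 CPM in Paneth cells, against 28.8 and 34.8 CPM in enteroendocrine cells (log2 fold change 2.03, SE 0.35, adjusted p = 0.00076). Ugt1a1, which conjugates bilirubin, had 58.8 and 154 CPM in Paneth cells, against 23.1 and 29.5 CPM in enteroendocrine cells (log2 fold change 2.02, SE 0.38, adjusted p = 0.0013). Cyp2c55 had 23.8 and 54.7 CPM in Paneth cells, against 1.39 and 3.90 CPM in enteroendocrine cells (log2 fold change 3.86, SE 1.00, adjusted p = 0.00873), Cyp3a11 83.3 and 327 CPM in Paneth cells, against 12.3 and 21.7 CPM in enteroendocrine cells (log2 fold change 3.59, SE 0.95, adjusted p = 0.00983), and Cyp2c66 9.79 and 25.6 CPM in Paneth cells, against 0.909 and 2.04 CPM in enteroendocrine cells (log2 fold change 3.56, SE 0.78, adjusted p = 0.00344). Cyp4a10, a PPAR-alpha target, had 3.26 and 24.05 CPM in Paneth cells, against 1.07 and 1.26 CPM in enteroendocrine cells (log2 fold change 3.55, SE 1.13, adjusted p = 0.0257). Paneth replicate 2 was the higher one in each of these genes.

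Gstt1 fell, with 25.7 and 67.1 CPM in Paneth cells, against 164 and 110.2 CPM in enteroendocrine cells (log2 fold change -1.56, SE 0.36, adjusted p = 0.00423). Cyp4f18 had 0 counts in both Paneth libraries, against 14.5 and 7.32 CPM in enteroendocrine cells, and was called lower (adjusted p = 0.000554). Of the pathway genes 32 of 61 rose (background 15.9% of all genes) and 4 fell (background 14.2%), and 10 of 13 sensors rose and 0 fell. The nuclear receptor gene Hnf4g had 224 and 551 CPM in Paneth cells, against 78.9 and 95.1 CPM in enteroendocrine cells (log2 fold change 2.15, SE 0.37, adjusted p = 0.000702). Enterocyte markers summed to 7179.6 and 16374 CPM in Paneth cells, against 2704 and 3172 CPM in enteroendocrine cells. Tuft cell markers summed to 41.5 and 799 CPM in Paneth cells, against 463 and 2473 CPM in enteroendocrine cells. The part of such cells in the result was not tested. The median log2 fold change over the members was 0.76 without Paneth replicate 2. It was 1.35 and 1.51 without enteroendocrine replicates 1 and 2. In each of these fits fewer members and fewer of all genes were called. Without Paneth replicate 2, Cyp2c55 (adjusted p = 0.0554), Cyp3a11 (0.107) and Cyp4a10 (0.422) lost their calls, as they did without enteroendocrine replicate 1 (0.0971, 0.0991 and 0.145), when Cyp2c66 did too (0.0518). Cyp4a10 lost it also without enteroendocrine replicate 2 (0.0996), and in a fit to these groups alone neither it (0.0501) nor Gstt1 (0.0618) was called.

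Toxin-treated CD274+CD69+ cells were set against control CD274+CD69+ cells. Most members stood lower after toxin, but few genes of any kind passed the test. Of 81 members 1 fell (1.23%, background 0.101%) and 0 rose (background 0.0741%), while 28 members had an unadjusted p below 0.05. The share of all genes at that level was not counted, so the 28 have no background. The toxin values lay below both control values in 59 members (72.8%, background 28.6%) and above both in 9 (11.1%, background 27.4%). The median log2 fold change was -0.87 over the members and 0.00 over all genes. In all 11 Ugt genes both toxin libraries lay below both controls, as in 32 of 46 Cyp, 12 of 18 Gst and 4 of 6 Sult genes. The gene called was Cyp1a1, which had 0.158 and 0.282 CPM (10 counts in all) in toxin-treated cells, against 79.8 and 83.3 CPM (3463 counts in all) in controls (log2 fold change -8.52, SE 1.33, adjusted p = 0.00883). Controls were the only group with values this high: elsewhere the highest Cyp1a1 value was 45.3 CPM, in Bmi1-GFP replicate 3, and Bmi1-GFP replicates 1 to 3 stood at 9.005, 1.91 and 45.3 CPM. The gene of its sensor, Ahr, had 30.2 and 33.8 CPM in toxin-treated cells, against 42.7 and 42.5 CPM in controls, and was not called (log2 fold change -0.41, SE 0.48, adjusted p = 1).

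Cyp3a11 had 5.59 and 34.7 CPM in toxin-treated cells, against 540.3 and 575 CPM in controls, and was not called (log2 fold change -4.79, SE 1.00, adjusted p = 0.0687). Cyp2c55 had 2.44 and 14.98 CPM in toxin-treated cells, against 168 and 175 CPM in controls (log2 fold change -4.31, SE 0.98, adjusted p = 0.117). Cyp2b10 had 13.9 and 64.9 CPM in toxin-treated cells, against 313 and 332 CPM in controls (log2 fold change -3.03, SE 0.89, adjusted p = 0.298). Gstm3 had 112 and 258 CPM in toxin-treated cells, against 897 and 911 CPM in controls (log2 fold change -2.29, SE 0.59, adjusted p = 0.19). In each of these, chosen after their values were seen, replicate 1 of the toxin-treated cells was lower than replicate 2, and none passed the adjusted threshold. By DESeq2's Wald test 9 of 74 members were called (background 0.561% of 14254 genes), and in a fit to these groups alone 14 of 66 (background 2.41% of 12561 genes), all of them lower. Enterocyte markers summed to 7203 and 13802 CPM in toxin-treated cells, against 19802 and 20521 CPM in controls. Stem cell markers summed to 1046 and 885 CPM in toxin-treated cells, against 980.0 and 996 CPM in controls. Cyp1a1, the only member called, lost its call without toxin replicate 1 or 2 (log2 fold change -8.15 and -8.95). None of the 61 pathway genes was called by edgeR.

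**Figure D5:**
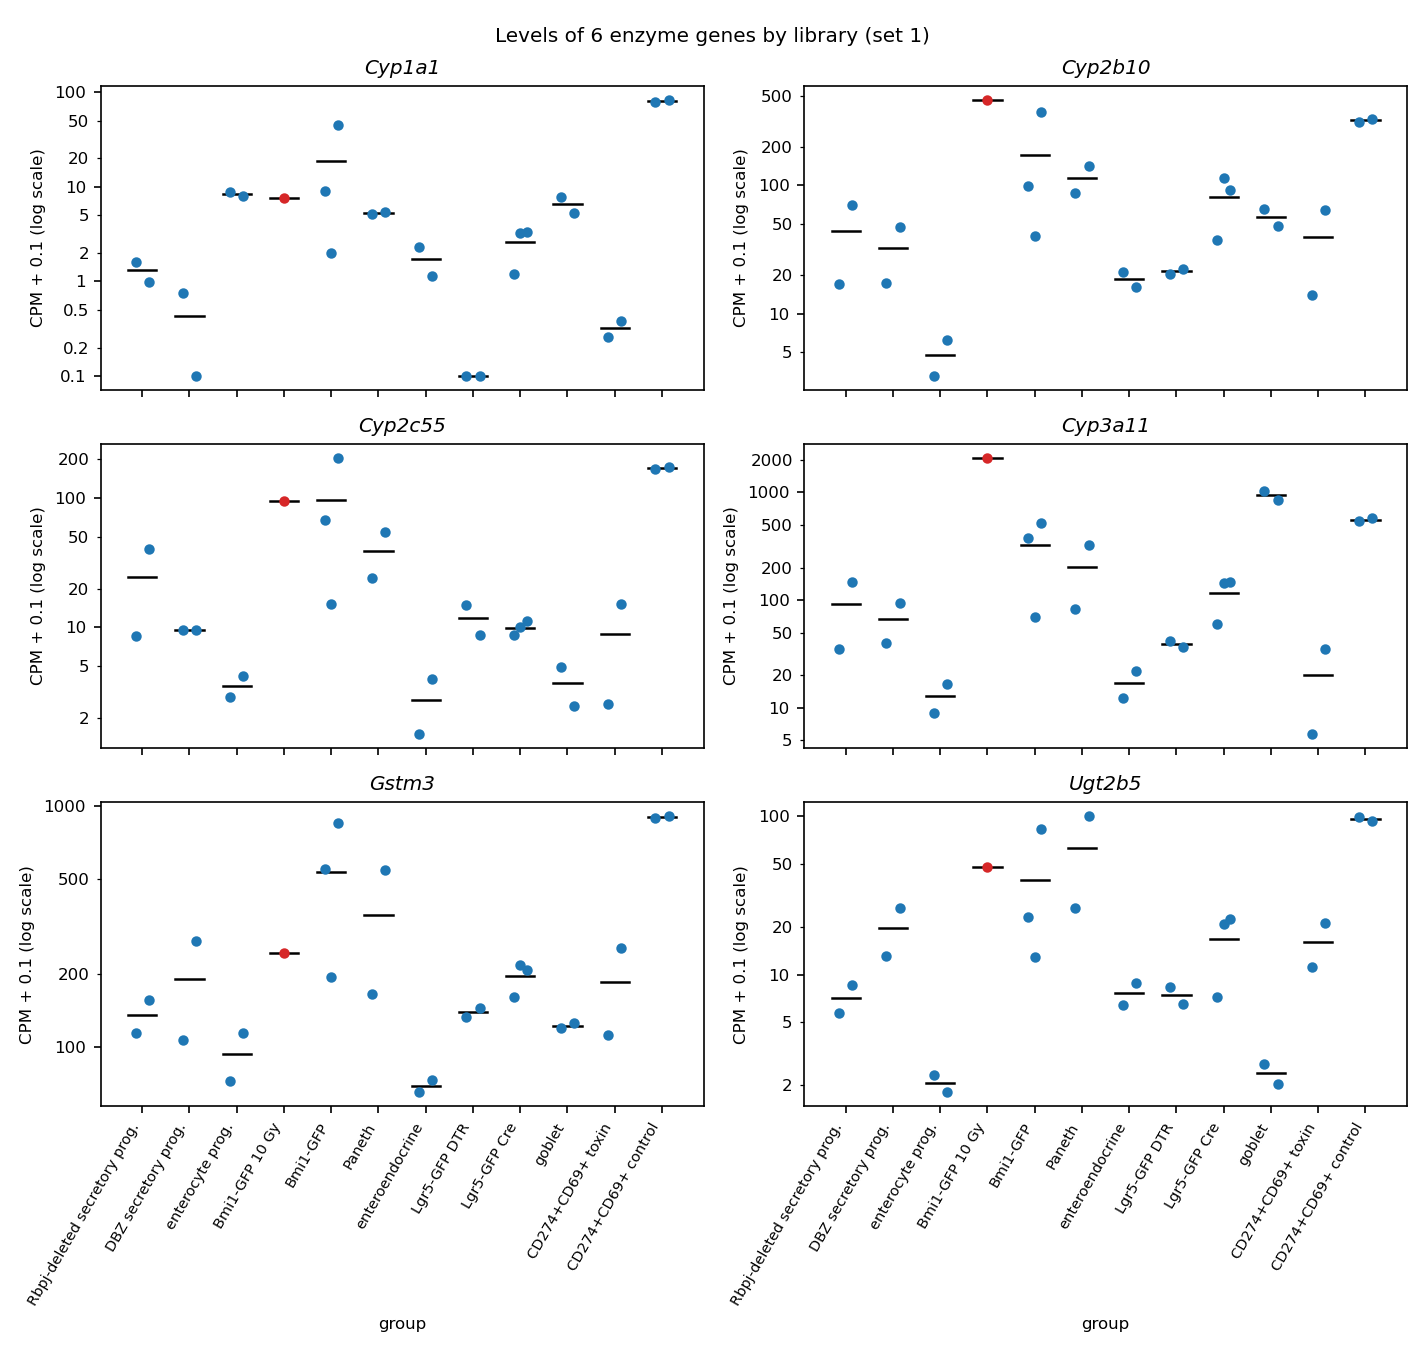
CPM + 0.1 (log scale) of Cyp1a1, Cyp2b10, Cyp2c55, Cyp3a11, Gstm3 and Ugt2b5, 1 point per library with a bar at the group mean; the single irradiated library is red. Control CD274+CD69+ libraries lie above toxin-treated ones in all 6 panels, for Cyp1a1 at 79.8 and 83.3 CPM with toxin-treated libraries at 0.158 and 0.282 CPM.

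The irradiated Bmi1-GFP library was set beside the 3 unirradiated Bmi1-GFP libraries as a description, since a single library allows no test. Of 55 members with 5 CPM or more on either side, 23 lay above the range of the unirradiated libraries by more than 1 on the log2 scale and 2 lay below it by as much. For all 10814 genes with 5 CPM or more, 16.1% lay above and 16.1% below. The median log2 difference was 1.47 over these members and 0.14 over these genes. Cyp3a13 had 3622 CPM in the irradiated library, against 158, 111 and 423 CPM in unirradiated cells. Cyp2d26 had 1229 CPM in the irradiated library, against 97.4, 56.3 and 162 CPM in unirradiated cells, and Cyp4b1 817 CPM in the irradiated library, against 83.8, 66.8 and 68.1 CPM in unirradiated cells. Gsta4 had 422 CPM in the irradiated library, against 37.2, 24.5 and 88.7 CPM in unirradiated cells. The Cyp genes above the range also held Cyp2c65, Cyp2d22, Cyp2j6, Cyp2r1, Cyp3a11, Cyp3a25, Cyp4a10, Cyp4f13, Cyp4f14 and Cyp4v3. Among phase II genes Gsta1, Gsta3, Gstm6, Gsto1, Gstt1, Sult1b1, Sult2b1, Ugt1a7c and Ugt2b34 were above it. Cyp2j5 lay below, with 5.05 CPM in the irradiated library, against 37.6, 38.8 and 48.6 CPM in unirradiated cells, and so did Cyp2e1, with 0.801 CPM in the irradiated library, against 9.99, 2.37 and 9.09 CPM in unirradiated cells. Enterocyte markers summed to 154774 CPM in the irradiated library, against 12970.5, 8532 and 22169 CPM in unirradiated cells, and enteroendocrine markers to 1787 CPM in the irradiated library, against 10511, 9656 and 6166 CPM in unirradiated cells; their part in these values was not tested.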

How the data were processed

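RNA of 25 libraries was analysed; the other 24 of 49 samples were not analysed here. The deposited table holds raw read counts per gene, whole numbers with no normalization by the authors. Per the submitters' processing notes, Bowtie2, TopHat2 2.0.6 and DESeq2 were used with mm10; which program counted reads, on what annotation and with which strand option, is not given in the sources used here, so overlapping and antisense genes cannot be separated. Reads were 75 bp single-end, per the labels' protocols.

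Tests ran in edgeR 4.0.16 (R 4.3.3): filterByExpr (minimum count 10, minimum total 15), TMM, and 1 quasi-likelihood fit over 24 libraries of the 11 groups with 2 or more, which share the spread (common dispersion 0.0719). Alternatives used DESeq2 1.42.0 and other settings given at the end. The procedure was tested on simulated data. Coordinates and promoters are RefSeq GRCm38.p6; 82 members matched by symbol and Cyp2c44 by synonym. Transcript lengths were not at hand, so levels are not compared between genes, and the planned scaling per length was left out.

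Members and gene lists were chosen with earlier results of these data known. Genes were named by family level (8 Cyp, 4 Ugt, 8 Gst, 4 Sult genes of highest mean CPM), by size of change (up to 4 called per direction with 5 CPM and no overlap), by range in the irradiated library and, for pathway genes, by lowest adjusted p (up to 3 per direction). Some were left out for length, and others were added after their values were seen.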

Additional observations from a re-analysis of the deposited data

How the results depend on the processing

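Depth limits genes of few counts, and most groups hold 2 libraries. For named members, 154 called results were recomputed under 1495 alternatives: 1291 kept direction and call, 204 kept direction without the call and 0 reversed; 73 of the 154 kept the call in every alternative, and 18 lost it in one other than leaving out a library. The cause was not tested. For DBZ secretory progenitors against enterocyte progenitors, 11 members (655 genes) were called by DESeq2's Wald test in place of 5 (361 genes). For toxin-treated against control CD274+CD69+ cells, 9 members (121 genes) were called by DESeq2, 6 (56 genes) with no filter, 14 (425 genes) with only the compared groups and 4 (27 genes) with the replicate block, in place of 1 (26 genes). For Paneth against enteroendocrine cells, 1536 genes were called with only the compared groups in place of 4462.

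With 1 library left out, where a lone library is assumed to vary like the other groups, the members called ranged from 15 to 33 for enterocyte progenitors against Lgr5-GFP-Cre cells, 0 to 6 for DBZ secretory progenitors against enterocyte progenitors, 2 to 6 for Rbpj-deleted against DBZ secretory progenitors, 26 to 30 for goblet against control CD274+CD69+ cells, 26 to 40 for Bmi1-GFP against Lgr5-GFP-Cre cells, 13 to 45 for Bmi1-GFP against enteroendocrine cells, 12 to 37 for Paneth against enteroendocrine cells and 0 to 1 for toxin-treated against control cells.

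Groups share replicate numbers, but same-numbered libraries did not deviate together in every pair (correlations of deviations from -0.35 to 0.40, and -0.06, 0.03 and 0.15 for the 3 pairs of Bmi1-GFP and Lgr5-GFP-Cre libraries), so the numbers were not taken as pairing. The highest value, 0.40, was that of Paneth and enteroendocrine cells, both from the CD24Hi sort. Pairing within that sort was not tested, since the replicate block fitted a shared effect over all groups. With the replicate block the members called were 34, 6, 7, 42, 35, 34 and 34 for the first 7 comparisons in the order of the report, against 35, 5, 6, 40, 33, 41 and 37 without it.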

Other observations

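Lgr5-GFP-DTR cells entered no comparison. Their members followed the other Lgr5 line in Cyp2e1 and Gstm5 (above), and differed in others: Cyp1a1 had 0 counts in both Lgr5-GFP-DTR libraries, against 1.11, 3.12 and 3.25 CPM in Lgr5-GFP-Cre cells, and Cyp2b10 had 20.3 and 22.2 CPM in Lgr5-GFP-DTR cells, against 37.4, 114 and 92.2 CPM in Lgr5-GFP-Cre cells. Cyp3a11 had 41.97 and 36.4 CPM in Lgr5-GFP-DTR cells, against 60.4, 143 and 148 CPM in Lgr5-GFP-Cre cells. These differences were not tested. Paneth cell markers summed to 205850.0 and 149638 CPM in Lgr5-GFP-DTR cells, against 43189.7, 39428 and 45807 CPM in Lgr5-GFP-Cre cells.

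Some enzyme genes known from liver had few or no counts outside replicate 1 of the Bmi1-GFP cells. Cyp4a14 had 208 counts there and 0 in every other library, Sult2a1 23 and 0, and Cyp2d9 72 with at most 3 elsewhere, so the count rule left them out. Hepatocyte markers summed to 243, 19.5 and 12.8 CPM in Bmi1-GFP replicates 1 to 3, in that order. Of these markers, Ahsg, Fga, Fgb, Fgg and Serpina3k had 0 CPM in replicates 2 and 3. Serpina1c had 33.3, 14.2 and 8.30 CPM in replicates 1 to 3, and 26.4 and 15.2 CPM in enteroendocrine cells. The sums of replicates 2 and 3 are thus no measure of hepatocyte genes as a set. Among members, Cyp2f2 had 8.31, 2.57 and 0.527 CPM in replicates 1 to 3, and 2.10 and 2.36 CPM in goblet cells.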
